A study of Mus musculus with 24 samples.

Results

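The transcription factor gene Atf4 and 9 further genes of the integrated stress response (Atf5, Atf3, Ddit3, Ppp1r15a, Trib3, Chac1, Sesn2, Ddit4 and Vldlr) were followed through RNA-seq and ribo-seq of mouse N2a neuroblastoma cells. The genes were picked by symbol, and the choice drew on how their mRNA level and their ratio of ribosome footprints to mRNA moved with Torin1 in these same libraries. Every difference between Torin1 and DMSO for these genes is therefore a description with no test. Of the 10 genes, 9 had a row in all 8 deposited count tables, against 12759 transcripts with a row in at least 1 of them, and all 9 passed the filter on low counts in every comparison. Vldlr was not analysed here. In the study, ctrl cells carried the empty pSpCas9(BB)-Puro vector, and KO cells were a puromycin-selected pool, not a clone, edited with 3 gRNAs against exons of Eif4e3, the gene of the cap-binding protein eIF4E3. Both lines received 250 nM Torin1 in DMSO, or DMSO alone, for 2 h. Each of the 4 conditions had 3 RNA-seq libraries from different cell passages, and 3 ribo-seq libraries. Of the ribo-seq libraries of ctrl DMSO, replicates 1 and 3 were used, and replicate 2, which the study set aside as an outlier, was not analysed here.

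In the integrated stress response, kinases that sense amino acid shortage, unfolded protein, haem loss or viral RNA phosphorylate eIF2α, which lowers translation initiation in general and favours the CDS of Atf4 over the upstream open reading frames (uORFs) in its 5′ transcript leader (5′ TL). The ATF4 protein then switches on genes of amino acid supply, redox balance and, in lasting stress, cell death, together with genes that shut the response down. Torin1 inhibits the mTOR kinase, and mTORC1 signalling is also known to maintain Atf4 mRNA and ATF4 protein in growing cells.

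Eif4e3, the targeted gene, stood at 12.0 to 18.2 CPM (CDS counts scaled to library size, with TMM within an assay) in the ctrl RNA-seq libraries and at 2.89 to 5.04 CPM in the KO libraries, and its footprints at 11.6 to 22.0 CPM in ctrl and 2.29 to 6.61 CPM in KO, so no library went against its label. The 12 RNA-seq libraries held 17048200 to 28911600 counts and the 11 ribo-seq libraries used 669244 to 5285880, with ctrl DMSO replicate 3 the lowest. Of 11 sympathoadrenal markers 10 were listed, with summed levels of 2064 to 2812 CPM, as were all 4 neuronal markers, and of 6 markers of other cell types Pecam1 was listed, at 2.32 to 4.58 CPM. These are bulk samples, so fewer expressing cells and less RNA per cell cannot be told apart.

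The leaders of the 9 measured mRNAs are shown first because uORFs are known to set how mRNAs of this response are read. Atf4 and Atf5 had an AUG-initiated uORF that runs past the start codon into the CDS in another frame. Atf3, Ddit3, Ppp1r15a and Sesn2 had uORFs that end within the leader. Chac1, Trib3 and Ddit4 had no upstream AUG. The Atf4 leader was the longest at 594 nt, with 3 upstream AUGs, and 5.3% of 10301 expressed transcripts had a leader as long. Its last uORF, of 59 codons, starts 97 nt before the CDS and covers the first 83 nt of it, 7.9% of the CDS. The Atf5 leader, of 373 nt, had the same layout in short, with a uORF of 3 codons followed by one of 58 codons that starts 121 nt before the CDS and covers 56 nt of it, 6.57% of the CDS. Over the 10301 transcripts the median leader was 173 nt, 50.7% had an upstream AUG and 16.0% had a uORF overlapping the CDS. The genes lie on GRCm38 at chr15:80255184-80257541 (Atf4, plus strand), chr7:44812256-44816658 (Atf5, minus), chr1:191170296-191218039 (Atf3, minus) and chr10:127290774-127296288 (Ddit3, plus). The feedback genes lie at chr7:45522917-45526268 (Ppp1r15a, minus) and chr2:152337422-152344032 (Trib3, minus). The target genes lie at chr2:119351229-119354381 (Chac1, plus), chr4:132492032-132510501 (Sesn2, minus) and chr10:59949669-59951834 (Ddit4, minus). No CDS among the 9 overlaps an exon of another gene.

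**Figure D1:**
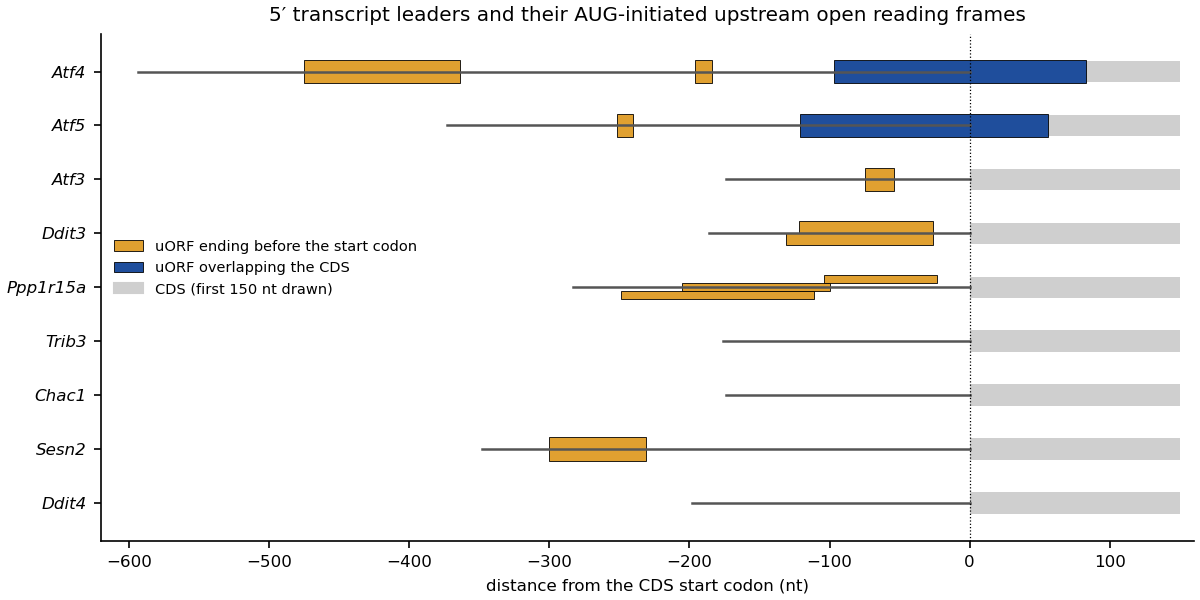
Annotated 5′ TL (lines) and AUG-initiated uORFs (boxes) of the 9 measured mRNAs by distance in nt from the CDS start codon, drawn to scale, with the first 150 nt of each CDS in grey. The overlapping uORFs of Atf4 and Atf5 (dark boxes) reach 83 and 56 nt into the CDS, and Chac1, Trib3 and Ddit4 have none.

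The start codons of the uORFs of Atf4, Atf5 and Ddit3 are printed with the 6 bases before and after, read from the GENCODE M21 transcripts on GRCm38 in the direction of the mRNA, with the start codon in capitals. They are shown because the 2 overlapping frames set Atf4 and Atf5 apart from the other members. The Atf4 contexts lie on the plus strand at chr15:80255297-80255311, chr15:80255576-80255590 and, across an exon junction, chr15:80255675-80256210. Those of Atf5 lie on the minus strand at chr7:44816529-44816543 and, across an exon junction, chr7:44815279-44816412. Those of Ddit3 lie on the plus strand at chr10:127290823-127290837 and chr10:127290832-127290846, and open one frame with a shared stop, of 34 or 31 codons.
Atf4, uORF of 36 codons: tctctcATGgggcct
Atf4, uORF of 3 codons: gccaccATGgcgtat
Atf4, uORF overlapping the CDS: taagccATGgcgctc
Atf5, uORF of 3 codons: cgcgcaATGgctctg
Atf5, uORF overlapping the CDS: gccgccATGgagtcc
Ddit3, upstream start codon: tatatcATGttgaag
Ddit3, internal start codon of the same frame: ttgaagATGagcggg

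Atf4 was by far the most abundant of the 9. Per kb of CDS, its mRNA in ctrl DMSO reached 1529 ± 182 (CPM per kb, SD, n = 3), and no other mean passed 176. Ddit3, Atf5, Chac1, Ddit4 and Trib3 followed between 176 and 144 CPM per kb, each overlapping its neighbour in that order. Ppp1r15a (51.9) and Sesn2 (41.1), which overlapped each other, were next, and Atf3 (13.3) was the lowest. On footprints per kb the order in ctrl DMSO was Atf4 (410.0), Chac1 (219) and Ddit4 (178), then Trib3 (88.8), Atf5 (70.2) and Ddit3 (60.0), with Sesn2 (21.3), Atf3 (16.5) and Ppp1r15a (10.0) last. Atf4 kept the first place in both assays in all 4 conditions. With Torin1 the mRNA order of ctrl cells was different below it. Chac1, at 9.63 CPM per kb, lay under the 35.7 of Ppp1r15a. Sesn2, at 2.72, lay under the 3.41 of Atf3, with overlapping libraries.

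With Torin1 the fitted mRNA level of all 9 genes was lower in both lines, as it was for 49.6% of all transcripts in ctrl and 51% in KO cells. The target genes Chac1 and Sesn2 were lower by 15.9-fold and 15.1-fold in ctrl cells, and by 14.3-fold and 12.3-fold in KO cells. Trib3, Atf3 and Ddit4 were lower by 3.74-fold to 6.30-fold, Atf4 by 2.27-fold and 2.03-fold, and Ddit3, Ppp1r15a and Atf5 by 1.22-fold to 1.74-fold. In KO cells the 5 lowest log2 fold changes of all 11004 transcripts were those of Chac1, Sesn2, Trib3, Atf3 and Ddit4, in that order. In ctrl cells these 5 were among the 10 lowest of 10958 transcripts, and Atf4 was 24th from the lowest. The median log2 fold change of the 9 genes was -1.90 in ctrl and -1.94 in KO cells, where that of all transcripts was 0.00 in both. Since the mRNA change entered the choice of the genes, no weight is placed on these ranks or medians.

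**Figure D2:**
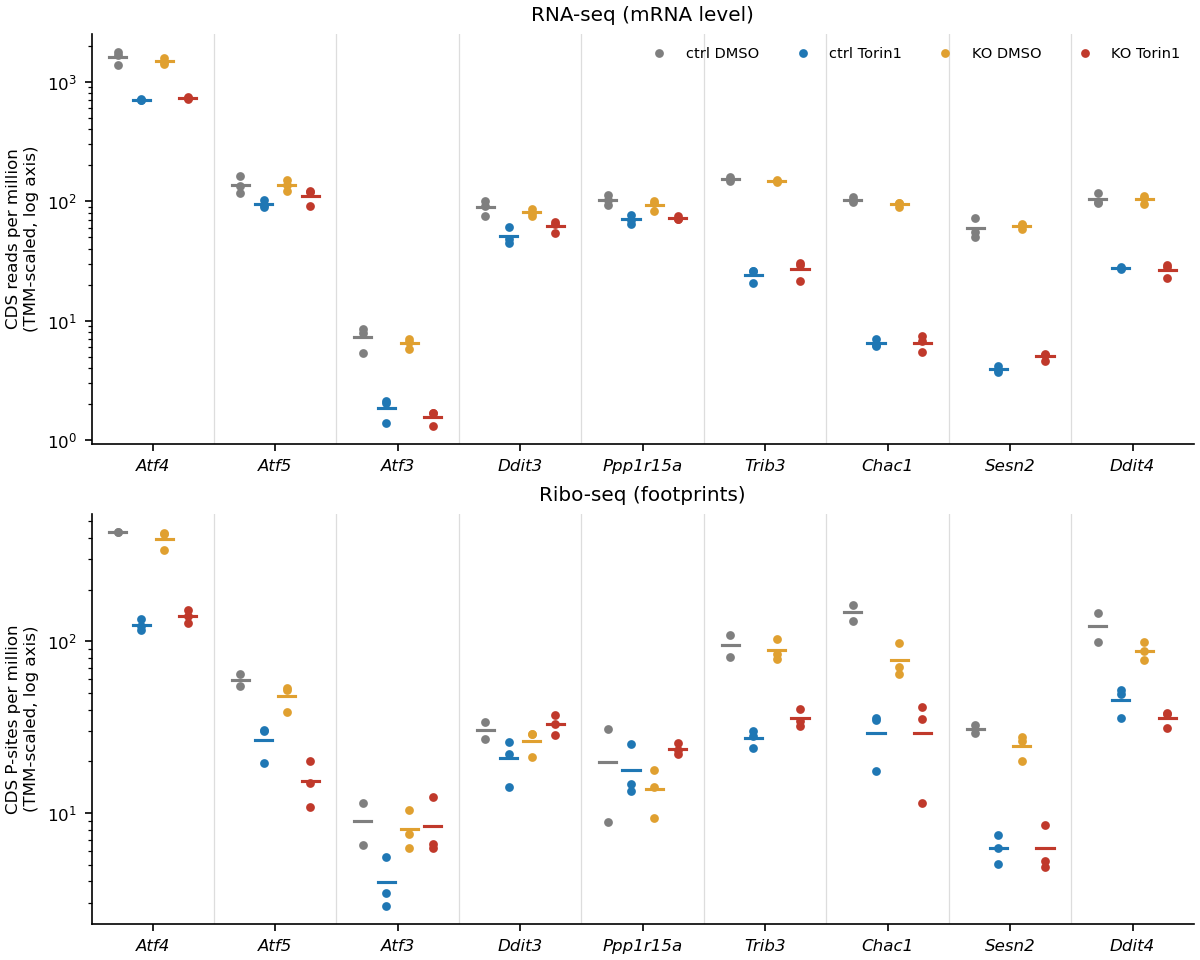
TMM-scaled CPM on a log axis for each library (points) and condition mean (bars), for mRNA (upper panel) and footprints (lower panel) of the 9 genes, to be compared between conditions within a gene. The Chac1 mRNA points run from 88.9 to 108 CPM in DMSO and from 5.53 to 7.42 CPM with Torin1.

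Counted by library, mRNA was lower in all Torin1 libraries than in any DMSO library for 9 of 9 genes in ctrl cells, where 16% of all transcripts showed this, and for 8 of 9 in KO cells (16.7% of all), with Atf5 the exception. Footprints were lower without overlap for 8 of 9 genes in ctrl cells (21.9% of all) and for 6 of 9 in KO cells (25.2% of all), where those of Ppp1r15a were higher without overlap (24.6% of all). The ratio of footprint CPM to mRNA CPM was lower without overlap for Atf4 and Atf5 in ctrl (19.5% of all) and in KO cells (22.1% of all). It was higher without overlap for Atf3, Chac1, Sesn2 and Trib3 in ctrl cells (16.7% of all) and for the other 7 in KO cells (17.6% of all). The choice of the genes fixed most of these counts, and nothing is read from them.

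Atf4 itself, the activator at the centre of the response, had 1669, 1756 and 1390.2 CPM of mRNA in the ctrl DMSO libraries and 703, 713 and 699.5 CPM with Torin1. In KO cells the values were 1408, 1585 and 1459.6 CPM in DMSO and 712, 741 and 731 CPM with Torin1. The Torin1 libraries of both lines lay within a narrow band, below every DMSO library. Footprints on the Atf4 CDS went from 431 and 430.3 CPM to 135, 123 and 116 CPM in ctrl cells. Those of KO cells went from 425, 422 and 342 CPM to 151, 141 and 129 CPM. The groups did not overlap in either assay or line. The log2 fold change of footprints was -1.79 ± 0.14 (SE) in ctrl and -1.52 ± 0.12 in KO cells, past that of mRNA, which was -1.18 ± 0.12 and -1.02 ± 0.07. The ratio of footprints to mRNA was accordingly lower with Torin1, at 0.166 to 0.191 against 0.258 and 0.310 in ctrl cells and at 0.176 to 0.212 against 0.234 to 0.302 in KO cells. P-sites were counted over the CDS in any frame, so a ribosome on the part of the uORF that lies inside the CDS counts towards Atf4.

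Atf5, a related bZIP factor whose leader has the same layout, had mRNA levels closer together. In ctrl cells it was 116, 162 and 133 CPM in DMSO and 89.5, 103 and 92.9 CPM with Torin1, without overlap. KO cells had 136, 152 and 121 CPM in DMSO and 119, 123 and 91.1 CPM with Torin1, with overlap between the groups. Its footprints were separate in both lines, and in KO cells the gap was the wider one. They were 54.9 and 64.7 CPM in ctrl DMSO against 30.4, 19.4 and 30.1 CPM with Torin1. The KO libraries held 51.8, 38.9 and 53.8 CPM against 15.0, 20.1 and 10.9 CPM. The log2 fold change of footprints was -1.14 ± 0.23 in ctrl and -1.63 ± 0.20 in KO cells, where that of mRNA was -0.53 ± 0.13 and -0.29 ± 0.11. The Atf5 ratio was 0.472 and 0.486 in ctrl DMSO and 0.189 to 0.339 with Torin1, and 0.257 to 0.443 and then 0.119 to 0.164 in KO cells.

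Atf3, a stress-induced bZIP factor that can repress transcription, was the least abundant mRNA of the set in DMSO. It was 8.59, 5.35 and 7.85 CPM in ctrl DMSO and 2.06, 2.12 and 1.41 CPM with Torin1. KO cells had 6.60, 5.83 and 7.08 CPM and then 1.69, 1.71 and 1.33 CPM. The Torin1 libraries were all lower, with log2 fold changes of -1.94 ± 0.25 and -2.03 ± 0.18. Footprints were 11.5 and 6.47 CPM in ctrl DMSO and 2.89, 5.55 and 3.41 CPM with Torin1. In KO cells they were 7.51, 10.5 and 6.25 CPM in DMSO and 6.61, 12.5 and 6.29 CPM with Torin1, and the groups overlapped. These rest on 4 to 50 P-sites a library. The log2 fold change of footprints was -1.32 ± 0.43 in ctrl cells and 0.01 ± 0.33 in KO cells, and the second turned negative, to between -0.38 and -0.05, without KO DMSO replicate 1 or 3 or KO Torin1 replicate 2. The Atf3 ratio in KO cells was 0.883 to 1.80 in DMSO and 3.90 to 7.29 with Torin1.

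Ddit3 encodes CHOP, a factor of lasting stress and cell death, behind a uORF known to restrain its CDS. Its mRNA was 101, 91.3 and 75.8 CPM in ctrl DMSO and 61.1, 44.3 and 48.7 CPM with Torin1. The KO libraries had 80.4, 86.8 and 74.7 CPM and then 66.9, 64.6 and 54.6 CPM. The groups did not overlap, and the log2 fold change was -0.80 ± 0.15 in ctrl and -0.37 ± 0.09 in KO cells. Footprints were 26.8 and 34.0 CPM in ctrl DMSO and 26.0, 22.2 and 14.2 CPM with Torin1. KO cells held 28.8, 28.7 and 21.2 CPM in DMSO and 37.5, 33.0 and 28.6 CPM with Torin1. Footprints had a log2 fold change of -0.48 ± 0.28 in ctrl and 0.31 ± 0.18 in KO cells. In the KO line the fitted sign was opposite to that of mRNA, but the footprint groups of DMSO and Torin1 overlapped. The Ddit3 ratio in KO cells was 0.283 to 0.359 in DMSO and 0.512 to 0.560 with Torin1.

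The feedback genes differed from each other. Ppp1r15a encodes GADD34, the regulatory subunit that brings a phosphatase to eIF2α and ends the response. Its mRNA was 102, 112 and 92.6 CPM in ctrl DMSO and 77.2, 69.9 and 64.2 CPM with Torin1. KO cells had 96.9, 99.5 and 82.0 CPM and then 71.1, 71.5 and 75.6 CPM. The groups did not overlap, with log2 fold changes of -0.54 ± 0.12 and -0.35 ± 0.09. Footprints in ctrl cells were 8.87 and 30.7 CPM in DMSO and 25.3, 13.4 and 14.8 CPM with Torin1. Those in KO cells were 17.8, 14.2 and 9.37 CPM in DMSO and 25.6, 22.0 and 23.4 CPM with Torin1, all higher than in DMSO. In ctrl cells the 2 DMSO libraries stood at either end of the range, and the direction rested on 1 of them. The fitted log2 fold change there was 0.33 ± 0.43 for footprints and 0.91 ± 0.43 for TE (translational efficiency, the log2 fold change of footprints less that of mRNA in a single model), and without ribo-seq ctrl DMSO replicate 1 it was -0.83 and -0.30. In KO cells it was 0.77 ± 0.23 for footprints and 1.12 ± 0.23 for TE.

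Trib3, a pseudokinase induced by ATF4 and CHOP that damps ATF4 activity, had an mRNA of 148, 159.9 and 153 CPM in ctrl DMSO and 26.1, 26.1 and 20.5 CPM with Torin1. The KO libraries had 146, 149.8 and 149 CPM and then 30.5, 29.1 and 21.6 CPM. Its log2 fold change was -2.66 ± 0.13 in ctrl and -2.45 ± 0.11 in KO cells, with no overlap. Footprints were 108 and 80.9 CPM in ctrl DMSO and 23.9, 28.2 and 30.1 CPM with Torin1. The KO libraries held 79.0, 84.5 and 104 CPM in DMSO and 32.2, 34.5 and 40.6 CPM with Torin1. They differed by less than the mRNA did, by -1.84 ± 0.19 and -1.34 ± 0.15 on the log2 scale.

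Chac1, an enzyme that degrades glutathione and a classical ATF4 target, had the largest mRNA difference of the set. Its mRNA was 98.4, 103 and 108 CPM in ctrl DMSO and 6.13, 7.06 and 6.22 CPM with Torin1. KO cells had 96.4, 88.9 and 97.4 CPM and then 5.53, 6.73 and 7.42 CPM. This came to a log2 fold change of -3.99 ± 0.14 in ctrl and -3.84 ± 0.11 in KO cells. Footprints were 131 and 163 CPM in ctrl DMSO and 34.7, 35.6 and 17.6 CPM with Torin1. KO cells held 98.0, 70.9 and 64.6 CPM in DMSO and 35.3, 41.2 and 11.4 CPM with Torin1. In both lines replicate 3 was the lowest of the Torin1 libraries, and every Torin1 library was lower than every DMSO library. For footprints the log2 fold change was -2.29 ± 0.22 in ctrl and -1.38 ± 0.22 in KO cells. The Chac1 ratio was 1.33 and 1.52 in ctrl DMSO and 2.83 to 5.66 with Torin1, and in KO cells 0.663 to 1.02 and then 1.54 to 6.38.

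Sesn2 and Ddit4 (REDD1) encode stress-induced inhibitors of mTORC1. The mRNA of Sesn2 was 55.1, 50.6 and 72.3 CPM in ctrl DMSO and 3.75, 4.15 and 3.87 CPM with Torin1. In KO cells it was 64.5, 59.1 and 62.8 CPM and then 5.27, 5.19 and 4.63 CPM. With log2 fold changes of -3.91 ± 0.17 and -3.62 ± 0.10, it lay next to Chac1. Footprints of Sesn2 were 32.3 and 29.1 CPM in ctrl DMSO and 5.06, 7.40 and 6.24 CPM with Torin1. In KO cells they were 20.1, 27.6 and 26.4 CPM in DMSO and 4.85, 5.27 and 8.57 CPM with Torin1. No group overlapped another across the treatment, and the log2 fold change of footprints was -2.29 ± 0.30 and -2.05 ± 0.27. The Torin1 values rest on 7 to 16 P-sites a library in ctrl and 11 to 15 in KO cells.

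The mRNA of Ddit4 was 99.3, 96.5 and 116 CPM in ctrl DMSO and 27.3, 28.2 and 27.6 CPM with Torin1. In KO cells it was 109.8, 106 and 94.5 CPM and then 28.0, 29.3 and 23.0 CPM. Both lines had nearly the same log2 fold change, -1.90 ± 0.12 and -1.94 ± 0.10. Footprints of Ddit4 were 147 and 98.7 CPM in ctrl DMSO and 52.1, 35.6 and 49.4 CPM with Torin1. In KO cells they were 99.6, 87.3 and 78.1 CPM in DMSO and 31.3, 38.3 and 37.7 CPM with Torin1. They were lower in every Torin1 library, by -1.52 ± 0.20 and -1.33 ± 0.15 on the log2 scale.

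On the TE scale the 9 genes did not all lie on one side. Atf4 and Atf5 had a lower TE with Torin1 in both lines, at -0.61 ± 0.18 and -0.62 ± 0.27 in ctrl cells and -0.49 ± 0.14 and -1.34 ± 0.25 in KO cells. The other 7 had a fitted TE difference above 0 in both, which held for 49.1% of all transcripts in ctrl and 49.2% in KO cells. Chac1 was highest, at 1.69 ± 0.28 in ctrl and 2.46 ± 0.30 in KO cells. Sesn2 had 1.61 ± 0.35 and 1.55 ± 0.31, and Trib3 had 0.82 ± 0.24 and 1.10 ± 0.19. Atf3 (0.60 ± 0.51 and 2.03 ± 0.38), Ddit4 (0.40 ± 0.24 and 0.62 ± 0.19) and Ddit3 (0.32 ± 0.32 and 0.69 ± 0.20) were nearer to 0 in ctrl cells than in KO cells. The higher TE went with fewer footprints, not more, for Chac1, Sesn2, Trib3 and Ddit4, whose footprints lost less than their mRNA. Only Ppp1r15a had footprints that were higher in every Torin1 library than in any DMSO library of its line, and only in KO cells. mRNA and TE differences share the RNA-seq counts, so an error in mRNA moves both in opposite directions, and the footprints do not share it. The direction of TE entered the choice of the genes, so nothing is read from it about their leaders. Over all transcripts, the 1650 with a uORF overlapping the CDS had a median TE difference of -0.03 in ctrl and 0.00 in KO cells, with 53.2% and 49.5% below 0, and the 8651 others had 0.00 and -0.01, with 50.4% and 51.1% below 0. Atf4, Atf5, Ddit3 and Ppp1r15a have 2 or more upstream AUGs. For the 2882 transcripts with 2 or more, the medians were 0.06 and 0.13, and for the 5075 with none they were -0.05 and -0.09. The median TE difference of the 9 genes was 0.60 in ctrl and 1.10 in KO cells, beside -0.01 for all transcripts in both. Scaling by library size alone put the median of all transcripts at 0.23 in ctrl and 0.26 in KO cells for footprints, where TMM had it at 0.02 in both, and at 0.16 and 0.24 for TE, where TMM had it at -0.01 in both. No member turned direction with it.

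**Figure D3:**
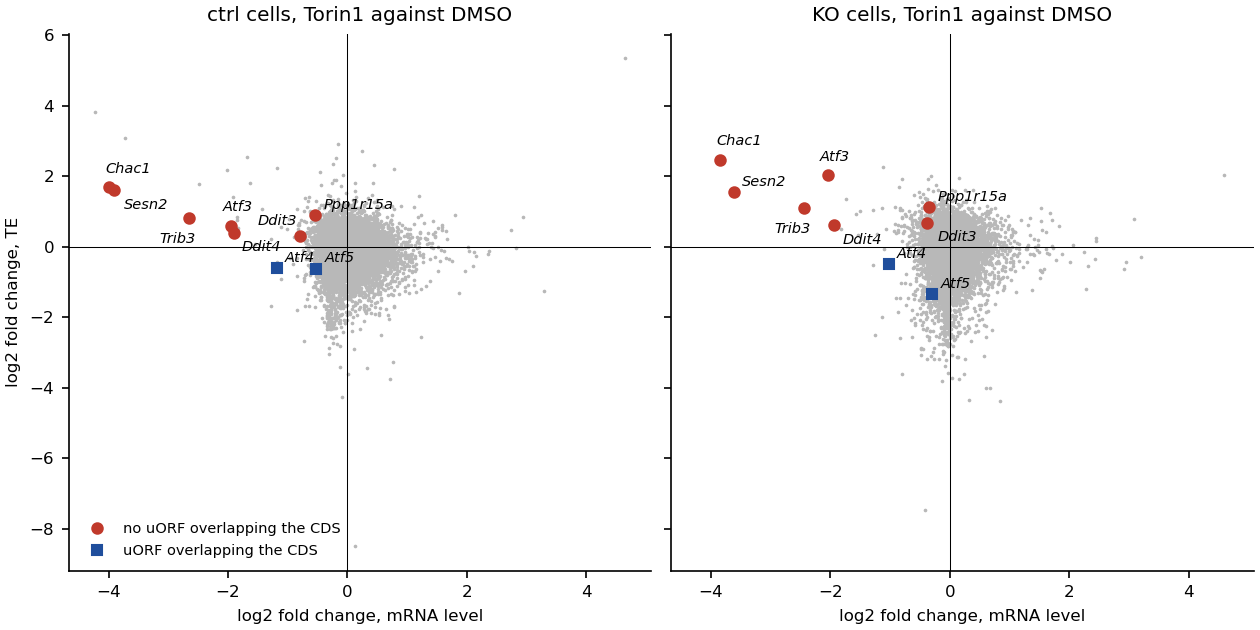
log2 fold change of TE against that of mRNA level, Torin1 against DMSO, for ctrl (left) and KO cells (right), with the 9 genes named and all other transcripts in grey. Atf4 and Atf5 (squares) lie below 0 in TE in both panels and the other 7 (circles) above 0.

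**Figure D4:**
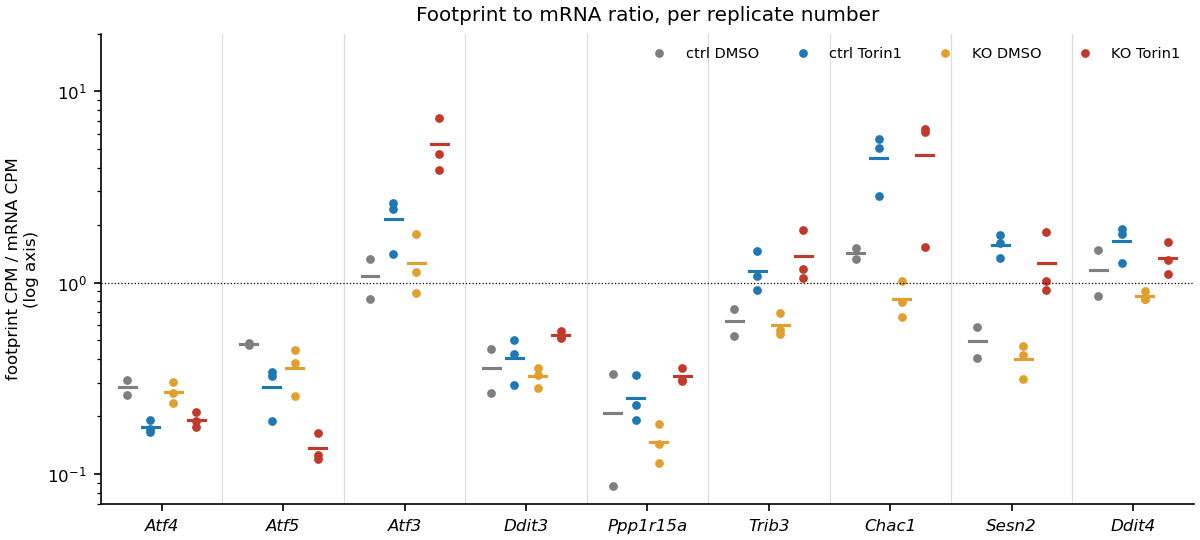
Ratio of footprint CPM to mRNA CPM (log axis) of libraries with the same replicate number (points) and condition means (bars) for the 9 genes. Atf4 and Atf5 drop with Torin1 in both lines, the Chac1 points lie between 0.663 and 1.52 in DMSO and between 1.54 and 6.38 with Torin1, and the 2 ctrl DMSO points of Ppp1r15a, 0.0869 and 0.332, span its whole ctrl range.

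Promoter sequence was compared because the measured genes all had a lower fitted mRNA level with Torin1, a change that entered their choice. Vldlr, which was not measured, is included for its sequence only. RefSeq windows from 250 bases before to 50 after the start site (GRCm38.p6) were found for all 10 genes, in 12 windows. The C/EBP-ATF response element (CARE, TGATGNAA on either strand), the site through which ATF4 and C/EBP partners act, was present in windows of Atf3, Chac1, Trib3 and Vldlr. It was present in 3.97% of the 32851 windows searched, from which 1 chromosome without a member was left out. The cAMP response element (CRE, TGACGTCA) was present in that of Ppp1r15a and in 1.79% of all, and the ER stress element (ERSE) in none of the 12 and in 0.12% of all. No member window held more than 1 of these motifs. The matches are printed 5′ to 3′ on the strand of the gene, with the motif in capitals, and each CARE is in reverse complement. They lie at chr1:191183428-191183451 (Atf3, minus strand), chr2:119351041-119351064 (Chac1, plus), chr2:152344031-152344054 (Trib3, minus), chr19:27216812-27216835 (Vldlr, plus) and chr7:45526265-45526288 (Ppp1r15a, minus). The Atf3 match belongs to a start site inside the gene. The measured Atf3 transcript, whose leader and uORF are described above, starts upstream of it, at position 191218039. A match describes the letters only, and the windows of Sesn2, Ddit4, Atf4, Atf5 and Ddit3 held no such letters.
Atf3, CARE: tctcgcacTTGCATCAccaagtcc
Chac1, CARE: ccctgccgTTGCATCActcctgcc
Trib3, CARE: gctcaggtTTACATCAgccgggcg
Vldlr, CARE: agcaatagTTGCATCAgcgctcct
Ppp1r15a, CRE: ctctccggTGACGTCAgcacagcg

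A difference between KO and ctrl cells was not a stated ground for choosing these genes, and it was tested. The choice was made with earlier results of these data known, so it was not independent of them. The KO line is 1 pool and the ctrl line another, so the p-values measure the spread between passages, and any other difference between the lines cannot be told apart from the loss of Eif4e3. In DMSO, the mRNA level, footprints and TE of the 9 genes passed the test in 0 of 9 cases each with edgeR's quasi-likelihood test and in 0 of 9 with DESeq2. Over all transcripts, 0.0183% passed for mRNA, 0.0279% for footprints and 0% (0 of 10475) for TE. On simulated differences of 1 (log2) in DMSO, edgeR called 88% of changed transcripts for mRNA, 68.5% for footprints and 20.5% for TE. Most TE differences of that size would thus be missed here. The unadjusted edgeR p was under 0.05 for 0 of the 9 genes in mRNA (5.91% of all transcripts), and for Chac1 and Ddit4 in footprints (7.9% of all) and in TE (4.07% of all). The mRNA intervals (95%) of all 9 lay between -0.61 and 0.40. Chac1 had the largest difference, with footprints of 98.0, 70.9 and 64.6 CPM in KO against 131 and 163 CPM in ctrl cells. They did not overlap, as was so for Atf4, Atf5 and Sesn2 too, and 12.8% of all transcripts were lower in KO in this way. Its log2 fold change was -0.89 (95% interval -1.29 to -0.50, edgeR adjusted p = 0.303), and edgeR's exact test gave an adjusted p of 0.0121. Over alternatives and left-out libraries the value stayed between -1.09 and -0.76. Ddit4 footprints differed by -0.55 (-0.92 to -0.17, edgeR adjusted p = 0.529), with overlapping groups.

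With Torin1, 1 of the 9 genes passed the edgeR test between KO and ctrl cells in footprints. In mRNA and in TE 0 of 9 passed it. Ddit3 footprints were 37.5, 33.0 and 28.6 CPM in KO against 26.0, 22.2 and 14.2 CPM in ctrl cells. No library overlapped, which was so for Ddit3, Atf3 and Trib3 and for 11.6% of all transcripts in this direction, and the log2 fold change was 0.69 (95% interval 0.25 to 1.12, edgeR adjusted p = 0.0472), beside 6.03% of all transcripts called in either direction and 2.02% called higher. This call was marginal. Footprint counts of Ddit3 ran from 25 to 85 a library, and the adjusted p was 0.129 with DESeq2 and 0.0773 when all 4 conditions were fitted together. Leaving out ctrl Torin1 replicate 3 gave a log2 fold change of 0.49 and an edgeR adjusted p of 0.241. The adjusted p was 0.188 when KO Torin1 replicate 1 was left out, 0.120 for KO Torin1 replicate 2 and 0.0847 for ctrl Torin1 replicate 2. The Ddit3 mRNA was higher in KO by 0.28 (0.05 to 0.50, edgeR adjusted p = 0.185, or 0.0111 with the replicate block) and its TE by 0.43 (-0.09 to 0.94, edgeR adjusted p = 0.404).

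Atf5 lay on the other side. Its footprints with Torin1 were 15.0, 20.1 and 10.9 CPM in KO and 30.4, 19.4 and 30.1 CPM in ctrl cells, where 1 ctrl library reached into the KO range. The log2 fold change of footprints was -0.75 (-1.26 to -0.25, edgeR adjusted p = 0.0610). It passed without ctrl Torin1 replicate 2 (-0.96, edgeR adjusted p = 0.0322) or KO Torin1 replicate 2 (-0.99, edgeR adjusted p = 0.0493), where Ddit3 did not, and by edgeR's exact test (adjusted p = 0.0349). Its mRNA leaned the other way, by 0.23 (0.03 to 0.42, edgeR adjusted p = 0.208, or 0.0195 with the replicate block). The TE of Atf5 differed by -0.96 (-1.52 to -0.40), and its groups of ratios, 0.119 to 0.164 in KO and 0.189 to 0.339 in ctrl cells, did not overlap, as for 11.2% of all transcripts in this direction. The edgeR adjusted p of that TE difference was 0.0528, where 2.85% of all transcripts were called, and it was 0.0348 with the replicate block, 0.00846 with DESeq2 and 0.206 with limma-voom. It also passed without RNA-seq ctrl Torin1 replicate 2 (-1.02) or KO Torin1 replicate 3 (-1.08), or without ribo-seq ctrl Torin1 replicate 2 (-1.18) or KO Torin1 replicate 2 (-1.21), so leaving out 1 library could bring it past the threshold.

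Atf3 footprints were higher in KO with Torin1 by 1.04 (0.19 to 1.88, edgeR adjusted p = 0.141), at 6.61, 12.5 and 6.29 CPM against 2.89, 5.55 and 3.41 CPM. The groups did not overlap, on 4 to 26 P-sites a library. The TE of Atf3 was higher in KO by 1.30 (0.32 to 2.28, edgeR adjusted p = 0.146). The ratios of Atf3 and of Ddit3 were higher in KO without overlap, as for 9.34% of all transcripts. For Atf4 the interval was narrow around 0, with a difference of 0.05 (-0.04 to 0.15) in mRNA, 0.18 (-0.06 to 0.42) in footprints and 0.14 (-0.09 to 0.37) in TE. Chac1, which differed most in DMSO, had 0.03 (-0.49 to 0.55) in footprints. Sesn2 mRNA had 0.37 (0.03 to 0.70, edgeR adjusted p = 0.247), and its libraries were separate at 5.27, 5.19 and 4.63 CPM in KO and 3.75, 4.15 and 3.87 CPM in ctrl cells, as were 10.9% of all transcripts in this direction. For mRNA 0 of 9 genes were called by edgeR (1.96% of all transcripts) and 0 of 9 by DESeq2, with an unadjusted p under 0.05 for Atf5, Ddit3 and Sesn2 (17.8% of all). For TE 0 of 9 were called by edgeR, and Atf5 alone by DESeq2, with an unadjusted p under 0.05 for Atf3 and Atf5 (16.9% of all). In footprints that held for Atf3, Atf5 and Ddit3 (20.3% of all).

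**Figure D5:**
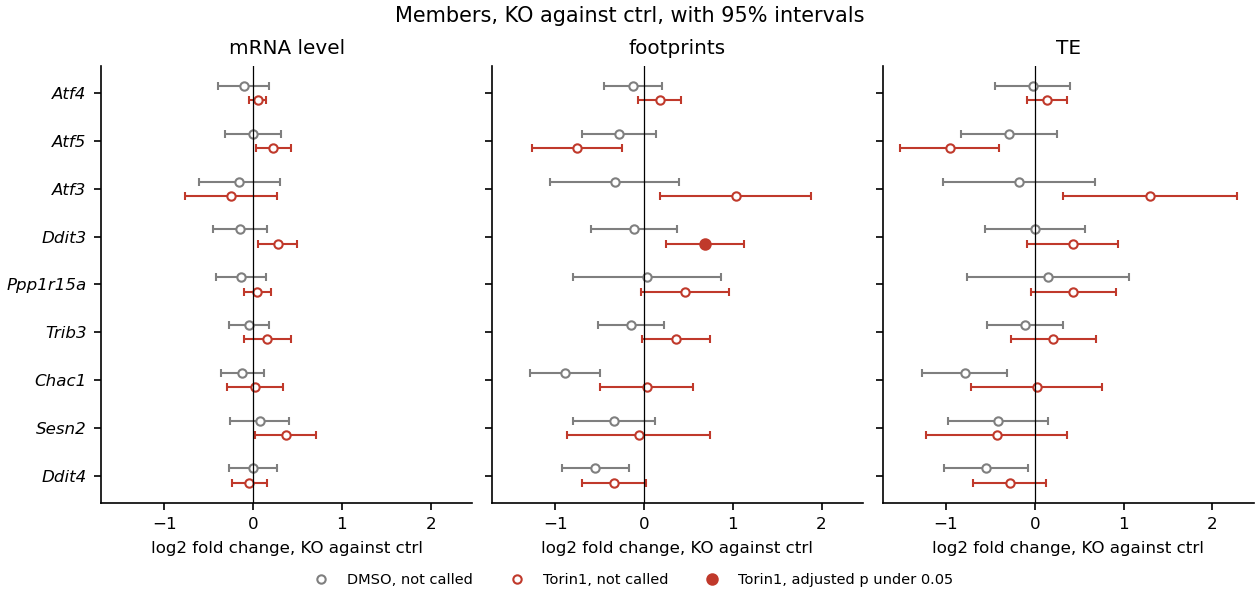
log2 fold change of KO against ctrl with 95% intervals for the 9 genes in mRNA level, footprints and TE, in DMSO (grey) and with Torin1 (red). The filled point, Ddit3 footprints with Torin1 at 0.69, is the one with an edgeR adjusted p under 0.05, and Atf5 TE with Torin1 lies at -0.96.

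A difference between the lines in the size of the Torin1 change needs a test of its own, the interaction of genotype and treatment. The choice of the genes drew on the Torin1 changes of both lines, so for the members this test is not independent of that choice. For mRNA 0 of 9 genes and 0 of 11073 transcripts were called by edgeR and by DESeq2, with 108 transcripts (0.975%) and, of the 9 genes, Ddit3 at an unadjusted p under 0.05. For footprints 0 of 9 genes were called and 12 of 10662 transcripts (0.113%), all lower. For TE 0 of 9 genes and 0 of 10443 transcripts were called by edgeR, with 599 (5.74%) and, of the 9 genes, Atf3 at an unadjusted p under 0.05, and DESeq2 called 16 transcripts and 0 of the 9 genes. On simulated interactions of 1 (log2), edgeR called 79% of changed transcripts for mRNA, 41.5% for footprints and 18% for TE. Most TE interactions of that size would thus be missed. The footprint estimates lay above 0 for 8 of the 9 genes and for 47.3% of all transcripts, that is, a smaller loss or a larger gain in KO cells. Without ribo-seq ctrl DMSO replicate 1 the estimate of Ddit4 (0.22) became -0.17, without ctrl DMSO replicate 3 that of Ppp1r15a (0.41) became -0.17, and without KO Torin1 replicate 3 that of Sesn2 (0.26) became -0.0022. The highest estimates were 1.36 for Atf3 (0.24 to 2.49), 0.92 for Chac1 (0.17 to 1.67), 0.80 for Ddit3 (0.15 to 1.46) and 0.52 for Trib3 (0.01 to 1.03), all with an unadjusted p under 0.05 (6.86% of all) and edgeR adjusted p of 0.576 to 0.716. Without ctrl DMSO replicate 1 that of Atf3 was 0.68 and that of Trib3 0.23. The median over the 9 was 0.41, and that over all transcripts was -0.02. For Chac1 the lines differed by 0.03 in footprints with Torin1 and by -0.89 in DMSO. The estimates of all 9 share the DMSO and Torin1 libraries and are not independent of each other or of the choice of the genes. Nothing is read from their shared direction or their median.

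Other transcripts were compared with the members by 2 limits, which describe the values used to choose the members and were met together by 4 of the 9. A log2 fold change of mRNA of -1 or lower in both lines was found for 14 of 10337 transcripts, of which 6 were members (Atf3, Atf4, Chac1, Ddit4, Sesn2 and Trib3). A TE log2 fold change of 0.5 or higher in both was found for 456, with 5 members. Both held for 9 transcripts, the members Atf3, Chac1, Sesn2 and Trib3 and the non-members Zfp420, Nfil3, Ciart, Jdp2 and Herpud1. Nearest to the median profile of the members (Euclidean distance over 4 log2 fold changes, of mRNA and TE in both lines) were Jdp2 (0.44), a bZIP repressor, Ciart (0.50), a circadian repressor, Herpud1 (0.61), a factor of ER-associated degradation, Nfil3 (0.95), a bZIP repressor, and Gdf15 (1.14), a stress-induced cytokine. Jdp2 mRNA had -1.84 and -1.58 and TE 0.77 and 0.93 in ctrl and KO cells, and Herpud1 mRNA had -1.83 in both and TE 0.52 and 0.51.

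The wider response was taken as lists of genes that are not members, and those of them that changed in mRNA level with Torin1 all fell. The lists were drawn up with earlier results of these data known, so p-values of their genes are not those of lists fixed beforehand. With Torin1, 0.675% of all transcripts were called lower and 2.05% higher for mRNA in ctrl cells, and 3.74% and 6.23% in KO cells. Of 20 ATF4 targets of amino acid synthesis and transport, 3 were called lower in ctrl and 9 in KO cells, and none higher, with list medians of -0.27 and -0.24. Slc7a5, the large neutral amino acid transporter, fell by 0.60 in KO cells (edgeR adjusted p = 0.000267). The ctrl calls of Slc1a4 (-0.55) and Gpt2 (-0.48) were lost without any 1 of the ctrl Torin1 libraries or ctrl DMSO replicate 1. Of 12 targets of tRNA charging 0 were called in ctrl and 3 lower in KO cells. Of 18 genes of the IRE1-XBP1 and ATF6 arms of the unfolded protein response 2 were called lower in ctrl (Creld2 and Manf, not without any 1 of these same libraries) and 7 in KO cells. Of 8 other ATF4 and CHOP targets 3 and 4 were called lower, led by Herpud1 and by Gdf15, which fell by 1.27 and 1.54 (edgeR adjusted p = 0.000112 and 6.85e-05). Of 11 other bZIP factors and regulators 1 and 3 were called lower, with Jdp2 in both. Of 13 genes of eIF2, its kinases, eIF2B and its phosphatases, and of 7 other mRNAs known for uORFs that answer eIF2 phosphorylation, 0 were called by edgeR in either line. Of these uORF mRNAs, Slc7a1, Eprs and Ppp1r15b also stand on the amino acid, tRNA charging and eIF2 lists, in that order.

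On TE the genes of these lists moved in both directions. With Torin1, 4.29% of all transcripts were called lower and 0.383% higher in ctrl cells, and 17.8% and 10.6% in KO cells. On simulated TE changes of 1 (log2), edgeR called 37.5% of changed transcripts in ctrl and 73.5% in KO cells. Counts of the lines are therefore not on equal terms. Of the 20 amino acid genes, 2 had a lower TE in ctrl cells, while 7 were lower and 2 higher among KO libraries. Slc7a5 fell in TE by 0.99 in ctrl and by 2.01 in KO cells, and Phgdh, the first enzyme of serine synthesis, fell by 0.92 in KO cells. Of the 18 genes of the unfolded protein response, Creld2 was called lower in ctrl cells (-0.82), and the KO line had 10 lower and 1 higher. The ctrl call of Creld2 was lost without any 1 RNA-seq ctrl Torin1 library, ribo-seq ctrl DMSO replicate 1 or ribo-seq ctrl Torin1 replicate 2 or 3 (-0.82 to -0.68). Hyou1, an ER chaperone, fell by 1.26 in KO cells and Creld2 by 1.42, and Hspa5, the main ER chaperone BiP, rose by 0.59. Of the 12 tRNA charging genes 0 in ctrl and 4 in KO cells were called, all higher, with Lars at 0.59 and Xpot at 0.54. Of the 7 uORF mRNAs 0 were called in ctrl, and in KO cells Slc7a1 fell by 1.12 while Ibtk (0.57) and Slc35a4 (1.00) rose. The Slc7a1 call is also counted among the amino acid genes. The call of Slc35a4 was lost without ribo-seq KO DMSO replicate 3, KO Torin1 replicate 2 or KO Torin1 replicate 3 (0.83 to 0.95). Of the 13 eIF2 genes 1 was called lower in ctrl and 3 in KO cells, with Eif2s3x at -0.76 and -0.92. That ctrl call was lost without any 1 library other than an RNA-seq ctrl DMSO library (-0.83 to -0.68). Of the 11 bZIP factors and regulators 0 and 3 were called, the 3 higher, and of the 8 other targets 1 was lower and 1 higher in ctrl cells, with 2 each way in the KO line.

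In footprints 9.93% of all transcripts were called lower and 5.69% higher in ctrl cells, and 22.1% and 18.5% in KO cells. On simulated footprint changes of 1 (log2), edgeR called 60.5% of changed transcripts in ctrl and 76.5% in KO cells. Of the lists, 7 and 12 of the 20 amino acid genes and 6 and 12 of the 18 genes of the unfolded protein response were called lower in ctrl and KO cells. Called higher were 0 of the first in both, and 1 and 2 of the second. Of the 12 tRNA charging genes 1 and 2 and of the 11 bZIP factors and regulators 1 and 4 were called higher, with 0 lower. Of 9 other ATF4 and CHOP targets 3 and 4 were called lower and 0 higher. The eIF2 genes had 1 lower and 1 higher in ctrl and 3 and 2 in KO cells, and the uORF mRNAs 1 and 0, then 1 and 3. Between the lines in DMSO, 0 genes of these lists were called by edgeR in any measure. With Torin1, KO cells had fewer footprints than ctrl cells on Slc7a5 (-1.05, edgeR adjusted p = 3.2e-09) and on 5 of 18 genes of the unfolded protein response, among them Hyou1 (-0.72, edgeR adjusted p = 7.7e-06) and Calr (-0.46, edgeR adjusted p = 0.0010). Of the other ATF4 and CHOP targets, Gdf15 (-0.61, edgeR adjusted p = 0.012) was called lower, but not without ctrl Torin1 replicate 3 or KO Torin1 replicate 1 or 2 (-0.57 to -0.54). No gene of the lists was called higher, where 4.01% of all transcripts were called lower and 2.02% higher. In TE Slc7a5 and 5 of the 18 genes of the unfolded protein response were called lower (2.26% of all). In mRNA Slc7a5 differed by -0.02 and Hyou1 by 0.00, and 1 gene of the lists, Cbs of the amino acid genes, was called lower (-0.44, edgeR adjusted p = 0.048). The Cbs call was lost without any 1 library except ctrl Torin1 replicate 2 (-0.52 to -0.31).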

How the data were processed

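RNA-seq and ribo-seq of N2a cells were compared over 4 conditions. The authors trimmed reads with cutadapt, mapped them with HISAT2 (mm10) and Bowtie2 (canonical Ensembl transcripts), and deposited raw counts per CDS, without normalization: reads overlapping the CDS for RNA-seq, riboWaltz P-sites for ribo-seq. Their fold change, p-value and TE columns were not used. In 1 RNA-seq table (DMSO, KO against ctrl), 2 columns per line share a replicate number and entered without one. Transcripts with a CPM over 1 in all libraries of a condition were fitted with edgeR 4.0.16 (R 4.3.3, TMM, quasi-likelihood test, Benjamini-Hochberg, threshold 0.05). TE was the interaction of assay and condition. The interaction of genotype and treatment used all 4 conditions. Intervals are 95%. DESeq2 1.42.0, limma-voom 3.58.1, edgeR's exact test, other filters and scalings and left-out libraries were alternatives. Scripts were tested on simulated data. Leaders came from GENCODE M21 and promoters from RefSeq.

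The labels give each replicate as a cell passage, and libraries of one number correlated at 0.0277 to 0.689 (RNA-seq) and -0.0412 to 0.139 (ribo-seq) after condition means were removed, so the replicate block was an alternative. Libraries of different numbers correlated at -0.541 to 0.385 and -0.139 to 0.114. Within each line, all RNA-seq pairs of one number lay above the others. They had 0.0574 to 0.204 against -0.228 to 0.0491 in ctrl, and 0.144 to 0.218 against -0.144 to -0.0397 in KO cells. Named genes were all members, Eif4e3, the 5 nearest profiles, the non-members that met both profile limits and up to 2 called genes per list and direction. Members and lists were chosen with earlier results of these data known. A list of paralogues of the members is not reported here.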

Additional observations from a re-analysis of the deposited data

Results flagged for a closer look

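Of the genes of the wider lists, 2 differed between the lines in their footprint response to Torin1 by a test of the difference itself. These lists were drawn up with earlier results of these data known. Footprints on Slc7a5, which encodes the large neutral amino acid transporter and is an ATF4 target, had an interaction of -1.10 ± 0.18 (SE, edgeR adjusted p = 0.00567), from -1.49 ± 0.14 in ctrl to -2.61 ± 0.11 in KO cells. The value was -1.29 to -0.94 with 1 ribo-seq library left out, and the adjusted p rose to 0.0524 without KO Torin1 replicate 1. Footprints on Hyou1, which encodes an ER chaperone, had an interaction of -0.93 ± 0.18 (SE, edgeR adjusted p = 0.0156), from -0.68 ± 0.14 to -1.62 ± 0.11. It was -1.05 to -0.80 with 1 library left out, and the call was lost without ctrl Torin1 replicate 2 or 3, KO DMSO replicate 2, or KO Torin1 replicate 1 or 2, with an adjusted p of up to 0.114. The cause of neither was tested.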

How the results depend on the processing

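The median log2 fold change of the 9 genes with Torin1 kept its sign and stayed within 1 replicate SD under every alternative run. Numbers of members called between KO and ctrl moved as follows. For mRNA with Torin1, the replicate block gave 2 (Atf5 and Ddit3) against 0. For footprints in DMSO, edgeR's exact test gave 1 (Chac1) against 0. For footprints with Torin1, DESeq2 and the fit of all 4 conditions gave 0, edgeR's exact test 2 (Atf5 and Ddit3), and left-out libraries 0 to 1, against 1 (Ddit3), the 1 being Atf5 in place of Ddit3 without ctrl Torin1 replicate 2 or KO Torin1 replicate 2. For TE with Torin1, DESeq2 and the replicate block gave 1 (Atf5) and left-out libraries 0 to 1, against 0. The block changed no other member call. The TE of Ppp1r15a in ctrl cells reversed, from 0.91 to -0.30, without ribo-seq ctrl DMSO replicate 1, and was 1.49 without replicate 3. The cause of these changes was not tested. Calls over all transcripts moved more, as for mRNA in ctrl cells with Torin1, where 299 became 113 to 1477 with 1 library left out, 723 with DESeq2, 744 with the exact test, 1221 with all 4 conditions and 1328 with the block. For mRNA between the lines the block raised them from 216 to 1041 with Torin1 (6 with all 4 conditions) and from 2 to 866 in DMSO. For TE between the lines with Torin1, 299 became 73 to 541. Ribo-seq ctrl DMSO rested on 2 libraries, one of them the shallowest. By mean CPM, Atf3 and Ppp1r15a had the fewest footprints in DMSO, and Atf3 and Sesn2 with Torin1.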
